A study of Mus musculus with 6 samples.

Results

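The osteoblast lineage genes described here are 9 genes chosen by symbol, Runx2, Sp7, Dlx5, Alpl, Phex, Bglap, Bglap2, Ibsp and Spp1, and all 9 were found among the 52550 genes of the deposited count table. The table compared macrophages of MSR1 KO mice (3 libraries) with macrophages of MSR1 WT mice (3 libraries), both on the C57BL/6 strain. In both groups bone marrow was cultured for 7 days in medium with 25 ng/ml M-CSF to give macrophages (BMDMs), which then shared medium with bone marrow stem cells (BMSCs) for 48 h across a transwell membrane. MSR1, the gene targeted in the KO mice, encodes the class A scavenger receptor of macrophages, and the sample labels give no genotype for the BMSCs. The sources used here call the libraries biological replicates without naming the mice behind them, so p-values measure the spread between these libraries.

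Osteoblasts build bone from a mesenchymal precursor. The transcription factor RUNX2 starts the program and SP7 (osterix) acts downstream of it, while DLX5 is a homeodomain factor that helps to switch on both. Later the cells make alkaline phosphatase (Alpl), which breaks down the mineralization inhibitor pyrophosphate, and secrete acidic matrix proteins, namely bone sialoprotein (Ibsp), osteopontin (Spp1) and osteocalcin (Bglap and Bglap2 in the mouse). PHEX is a membrane endopeptidase of osteoblasts and osteocytes needed for phosphate balance. Osteopontin is the exception in this set, since macrophages and osteoclasts also make it in quantity, as a cytokine and as a ligand of integrins and CD44.

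Total counts were between 36143518 and 47417448 per library. Counts of Msr1 were 1825 to 2118 in the MSR1 KO and 7543 to 9219 in the MSR1 WT libraries, so the labels match the targeted gene although reads remained. Of 12 macrophage markers, none was at 0 in all libraries and their summed level was 29470 to 31090 CPM (counts scaled to a common library size) in MSR1 KO and 29250 to 32340 CPM in MSR1 WT. Of 16 stromal markers, none was at 0 either, and their summed level was 1944 to 2558 CPM in MSR1 KO and 2614 to 3140 CPM in MSR1 WT libraries. The study extracted total RNA of the macrophages, and how stromal reads entered these libraries was not tested. In RNA pooled over cells, fewer cells of a type and less RNA per cell cannot be told apart.

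The sequences that bear on these genes are the regions just before the start of Spp1, Ibsp and Bglap, and the coding sequences of the osteocalcin genes. RUNX factors bind the core letters TGTGGT, which read ACCACA on the other strand. RefSeq promoters (GRCm38.p6, 250 bases before to 50 after each start) were found for 6 of the 9 genes, 8 promoters in all, and the core stood on either strand in a promoter of 3 genes, Runx2, Bglap and Spp1. The share of all 32851 promoters with it was 16.8%. The homeodomain core TAATTA was found in 1 gene, Spp1, at its second start, against 5.29% of all promoters. The 250 bases before the start are given 5′ to 3′ with the RUNX core in capitals, for Spp1 (chr5:104434861-104435110, plus strand), where it begins 128 bases before the start, for Bglap (chr3:88384467-88384716, minus strand), where it begins 132 bases before the start, and for Ibsp (chr5:104299037-104299286, plus strand), whose window does not hold these letters. They are shown because Spp1 and Ibsp are the genes of the set whose groups did not overlap and Bglap is an osteocalcin gene listed at 0 counts.
Spp1: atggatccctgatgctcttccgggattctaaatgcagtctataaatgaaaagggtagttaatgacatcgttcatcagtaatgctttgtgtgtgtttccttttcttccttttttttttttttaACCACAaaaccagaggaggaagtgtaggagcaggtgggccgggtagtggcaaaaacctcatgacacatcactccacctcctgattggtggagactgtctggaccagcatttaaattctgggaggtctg
Bglap: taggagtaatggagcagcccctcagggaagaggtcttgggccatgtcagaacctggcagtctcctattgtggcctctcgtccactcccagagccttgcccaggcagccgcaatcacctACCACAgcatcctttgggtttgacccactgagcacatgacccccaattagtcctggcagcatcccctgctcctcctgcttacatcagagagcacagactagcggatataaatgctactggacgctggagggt
Ibsp: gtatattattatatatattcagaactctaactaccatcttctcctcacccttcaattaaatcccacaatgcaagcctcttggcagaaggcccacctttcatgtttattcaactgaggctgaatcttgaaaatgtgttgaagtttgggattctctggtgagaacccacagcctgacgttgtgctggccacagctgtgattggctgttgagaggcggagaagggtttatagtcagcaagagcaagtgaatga

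Among the 9 genes, 7 had a count in some library, and 6 had enough counts to be tested with the 16402 genes of edgeR's quasi-likelihood test. Spp1 fell in the MSR1 KO libraries. None of the other 5 tested genes had an adjusted p under 0.05, and Ibsp was higher under the study's own definition of a differentially expressed gene (fold change above 1.5 and unadjusted p under 0.05). By the adjusted p, 1 of the 6 tested genes was thus lower and 0 were higher, while 2.66% of all tested genes were lower, 2.25% higher and 4.91% called in either direction. By the study's definition 1 was lower and 1 higher, against 5.05% and 3.59% of all tested genes (8.64% in either direction).

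**Figure D1:**
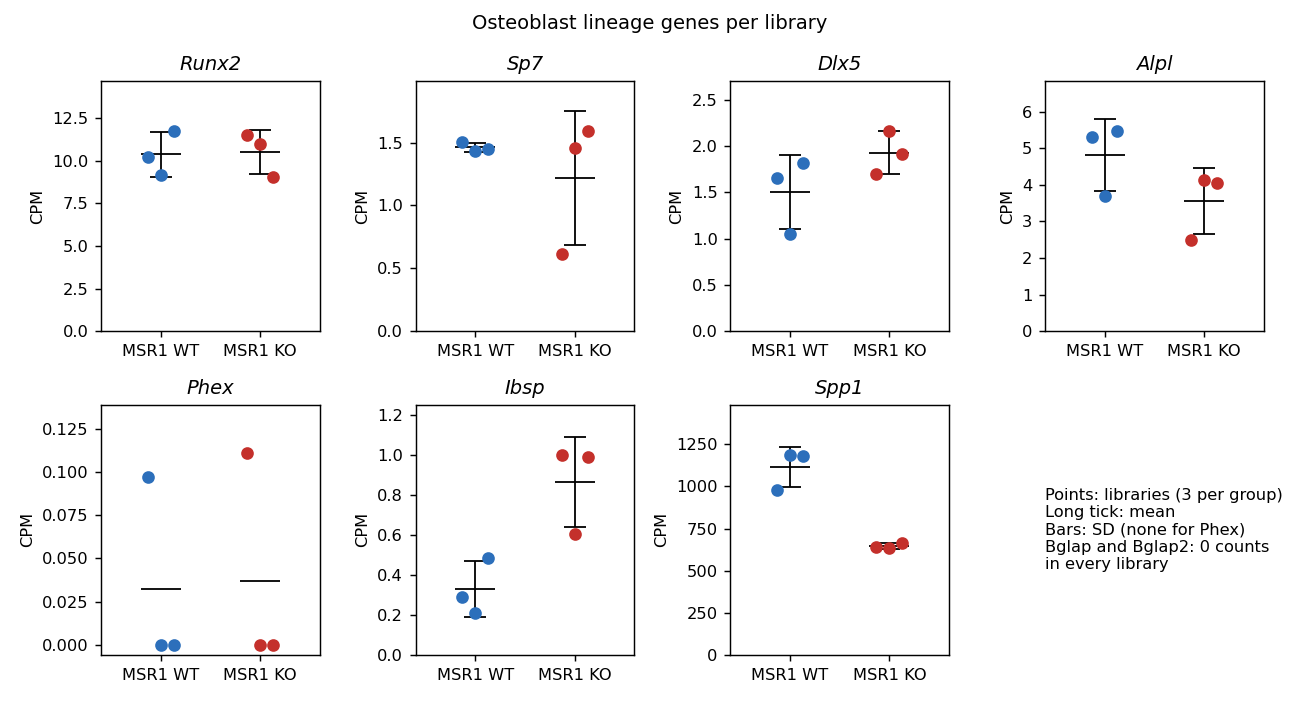
Level of each osteoblast lineage gene with a count (CPM, linear axis) in the 3 MSR1 WT and 3 MSR1 KO libraries, with the mean and SD of each group (mean alone for Phex). Spp1 lies at 633 to 665 CPM in MSR1 KO and at 979 to 1188 CPM in MSR1 WT, Ibsp is the other gene whose groups do not overlap, and the groups overlap for Runx2, Sp7, Dlx5, Alpl and Phex.

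Per length of exon, the genes covered a wide range of levels, and only Spp1 was abundant. In MSR1 WT libraries Spp1 had 677 ± 72.3 CPM per kb (SD, n = 3), the level at rank 43 of 52403 genes with an exon length, and in MSR1 KO libraries 392 ± 10.3 CPM per kb (SD, n = 3), at rank 82. In MSR1 WT libraries it was followed by Alpl (1.20 ± 0.24 CPM per kb), Runx2 (1.17 ± 0.15), Dlx5 (0.67 ± 0.18), Sp7 (0.43 ± 0.011), Ibsp (0.16 ± 0.068) and Phex (0.0051 ± 0.0089; SD, n = 3 for each). The libraries of Alpl and Runx2 overlapped, as did those of Phex and the osteocalcin genes at 0, so these neighbours were not ordered. In MSR1 KO libraries Runx2 (1.19 ± 0.15 CPM per kb) stood above Alpl (0.88 ± 0.23), Dlx5 (0.85 ± 0.10), Ibsp (0.42 ± 0.11) and Sp7 (0.36 ± 0.16; SD, n = 3 for each), and Alpl overlapped with Dlx5 and Ibsp with Sp7. The mean of Spp1 was thus 566 times that of the next gene in MSR1 WT and 329.5 times in MSR1 KO libraries. Of the other tested genes Runx2 had the most counts per library, 414 to 485. Ibsp had the lowest mean count (24.67, range 10 to 46), although in MSR1 KO replicate 1 Sp7 had fewer (22 against 36).

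The transcription factors that open the program did not differ detectably. Runx2 (ENSMUSG00000039153.16, chromosome 17 from 44495987 to 44814797, minus strand) was counted 414, 437 and 420 times in MSR1 KO and 421, 434 and 485 times in MSR1 WT libraries. The groups overlapped. Its log2 fold change (MSR1 KO minus MSR1 WT) was 0.020, with a standard error of 0.15, a 95% interval from -0.33 to 0.37 and an adjusted p of 0.96 (edgeR's quasi-likelihood test, Benjamini-Hochberg over all tested genes). An antisense gene, Runx2os1, covers 5.87% of the exon bases of Runx2 and had 27 to 57 counts, and without a stated strand setting reads there cannot be assigned. The paralogs Runx1, the factor of blood cell formation, and Runx3 gave log2 fold changes of 0.016 and 0.051. Per exon length Runx1 had 8.21 CPM per kb in MSR1 KO and 8.12 in MSR1 WT libraries, well above Runx2, and Runx3 had 1.70 and 1.64.

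Sp7 (ENSMUSG00000060284.6, chromosome 15 from 102356609 to 102366325, minus strand), the factor needed for osteoblasts to mature, had 22, 58 and 74 counts in MSR1 KO and 62, 68 and 60 in MSR1 WT libraries. MSR1 KO replicate 1 was the low one, at 0.61 CPM, and the other 5 libraries lay between 1.43 and 1.59 CPM. The log2 fold change of -0.25 (standard error 0.38, 95% interval from -1.13 to 0.62, adjusted p = 0.79 by edgeR) was 0.067 without MSR1 KO replicate 1, so its sign rested on that library. Dlx5 (ENSMUSG00000029755.10, chromosome 6 from 6877805 to 6882085, minus strand) had 61, 86 and 89 counts in MSR1 KO and 68, 50 and 75 in MSR1 WT libraries. The groups overlapped, with MSR1 WT replicate 2 lowest. Its log2 fold change was 0.36 (standard error 0.29, 95% interval from -0.31 to 1.02, adjusted p = 0.58 by edgeR).

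Of the genes that act on mineral, Alpl was detected at a low level and Phex barely. Alpl (ENSMUSG00000028766.10, chromosome 4 from 137741733 to 137796384, minus strand) had 90, 164 and 188 counts in MSR1 KO and 219, 175 and 226 in MSR1 WT libraries. Its level was 3.56 ± 0.91 CPM (SD, n = 3) against 4.82 ± 0.99 CPM (SD, n = 3), and MSR1 WT replicate 2 lay among the MSR1 KO libraries. The log2 fold change was -0.44 (standard error 0.26, 95% interval from -1.02 to 0.15, adjusted p = 0.42 by edgeR). A difference was thus not shown, and a fall of 1.02 on the log2 scale was not excluded by the interval. With 1 library left out the value ranged from -0.60 (without MSR1 WT replicate 2) to -0.23 (without MSR1 KO replicate 1). Phex (ENSMUSG00000057457.11, chromosome X from 157162075 to 157415312, minus strand) had 4 counts in replicate 1 of each genotype and 0 in the remaining 4 libraries. In a single library a 0 leaves room for as many as 3 counts, which is 0.063 to 0.084 CPM, so no difference was detectable at this depth (exact permutation test, two-sided p = 1). Such limits reflect counting error alone.

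Osteocalcin, the most specific product of the mature osteoblast, was not detected. Bglap (ENSMUSG00000074483.2, chromosome 3 from 88383501 to 88384464) and Bglap2 (ENSMUSG00000074486.2, chromosome 3 from 88377736 to 88378699), both on the minus strand, were listed at 0 counts in all 6 libraries. The third gene of the cluster, Bglap3, had 3 counts in MSR1 WT replicate 2 and 0 elsewhere, so the 3 genes summed had 3 counts in all and did not enter the test. For each gene a 0 over the 3 libraries of a group leaves room for as many as 3 counts, or 0.025 CPM in MSR1 KO and 0.023 CPM in MSR1 WT. These genes are near copies of each other, which bears on how reads could be counted. Their coding sequences of 288 bases (GENCODE M21 transcripts) are given 5′ to 3′ with the 13 positions at which the 3 genes differ in capitals.
Bglap: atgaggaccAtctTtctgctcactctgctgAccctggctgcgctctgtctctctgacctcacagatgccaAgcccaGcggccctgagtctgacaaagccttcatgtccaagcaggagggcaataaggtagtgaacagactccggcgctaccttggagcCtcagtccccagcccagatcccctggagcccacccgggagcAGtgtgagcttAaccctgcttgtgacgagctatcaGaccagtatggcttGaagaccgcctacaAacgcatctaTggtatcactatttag
Bglap2: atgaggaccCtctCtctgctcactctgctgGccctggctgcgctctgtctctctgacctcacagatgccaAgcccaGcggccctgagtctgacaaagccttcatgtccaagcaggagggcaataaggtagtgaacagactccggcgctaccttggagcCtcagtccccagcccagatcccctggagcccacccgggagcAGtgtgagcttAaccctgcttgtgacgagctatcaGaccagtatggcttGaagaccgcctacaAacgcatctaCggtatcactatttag
Bglap3: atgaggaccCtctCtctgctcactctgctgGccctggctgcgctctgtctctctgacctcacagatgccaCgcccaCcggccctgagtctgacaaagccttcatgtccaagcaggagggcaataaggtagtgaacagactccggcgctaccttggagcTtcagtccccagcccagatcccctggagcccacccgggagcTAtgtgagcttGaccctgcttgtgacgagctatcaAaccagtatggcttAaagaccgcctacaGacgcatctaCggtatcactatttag
Bglap2 differs from Bglap at 4 of the 288 bases (98.6% identity) and Bglap3 at 13 (95.5%). Of all stretches of 100 bases in the transcripts of Bglap, 38.7% also occur in a transcript of another gene, and of those of Bglap2 57.0%. The remaining stretches of each gene were found in no other gene. At 150 bases the shared part was 19.6% and 28.6%. How the authors counted reads that match several genes is not given in the sources used here, and its part in the zeros was not tested.

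Ibsp and Spp1, which encode integrin-binding glycoproteins of bone matrix, were the genes of the set whose groups did not overlap, and they lay on opposite sides. For 25.5% of all tested genes the groups did not overlap. Ibsp (ENSMUSG00000029306.8, chromosome 5 from 104299171 to 104311469, plus strand) had 36, 24 and 46 counts in MSR1 KO and 12, 10 and 20 in MSR1 WT libraries. Every MSR1 KO library was above every MSR1 WT library, at 0.865 ± 0.227 CPM against 0.329 ± 0.141 CPM (SD, n = 3 each). The log2 fold change was 1.39 (standard error 0.49, 95% interval from 0.28 to 2.51), with an unadjusted p of 0.021 and an adjusted p of 0.16 by edgeR. All 3 MSR1 KO and 2 of the 3 MSR1 WT libraries were above the 0.24 CPM that the filter on low counts asks for, so the MSR1 KO group alone was enough to bring the gene into the test. It no longer met the study's definition without MSR1 KO replicate 1, MSR1 KO replicate 3, MSR1 WT replicate 1 or MSR1 WT replicate 2.

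Spp1 (ENSMUSG00000029304.14, chromosome 5 from 104435118 to 104441050, plus strand) reached 22964, 25214 and 30917 counts in MSR1 KO, whereas MSR1 WT libraries held 40346, 56389 and 48793, or 0.063% to 0.065% of all counts against 0.098% to 0.12%. The MSR1 KO libraries lay close together and all below the MSR1 WT libraries, of which replicate 1 was lowest. The level fell from 1116 ± 119 CPM (SD, n = 3) to 646 ± 16.9 CPM (SD, n = 3), a change of -0.79 on the log2 scale (standard error 0.086, 95% interval from -0.99 to -0.59, adjusted p = 0.0065 by edgeR), which is 1.73-fold lower. Without any 1 library the log2 fold change stayed between -0.88 and -0.74, with adjusted p-values from 0.0078 to 0.041 by edgeR. An exact two-sided permutation test of the level gave p = 0.1 for Spp1 and for Ibsp, the smallest p that 3 libraries against 3 allow. Another gene on the same strand, Gm42793, covers 18.75% of the exon bases of Spp1 and had 14 to 90 counts per library, few beside those of Spp1. Of the stretches of 100 bases in Spp1 transcripts, 5.8% also occur in Gm42793.

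**Figure D2:**
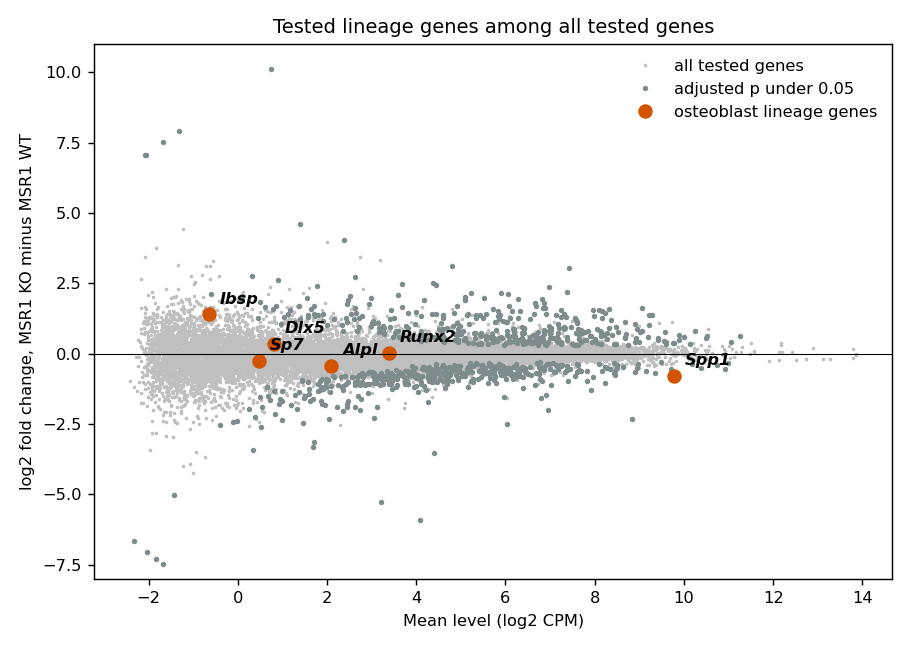
Each tested gene by its mean level (log2 CPM, horizontal) and its log2 fold change (MSR1 KO minus MSR1 WT, vertical), with genes at an adjusted p under 0.05 in dark grey and the 6 tested lineage genes in orange. Spp1 is far to the right of the other 5 genes and below 0, and Ibsp is the highest of the 6.

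**Figure D3:**
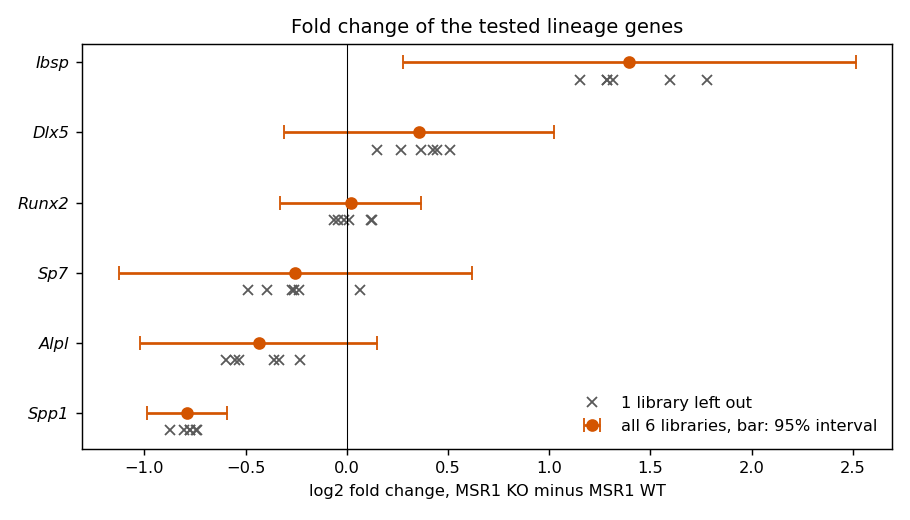
Log2 fold change (MSR1 KO minus MSR1 WT) of the 6 tested lineage genes with its 95% interval (orange) and the values with 1 library left out (crosses). The interval of Spp1 runs from -0.99 to -0.59, that of Ibsp from 0.28 to 2.51, and those of Runx2, Sp7, Dlx5 and Alpl include 0.

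Spp1 and Ibsp are neighbours in a cluster of matrix genes on chromosome 5, with starts 136 kb apart. The other 3 genes of that cluster, Dspp (dentin sialophosphoprotein), Dmp1 (dentin matrix protein of osteocytes) and Mepe (an osteocyte phosphoglycoprotein), were listed at 0 counts in all 6 libraries, and Mepe lies between Ibsp and Spp1. Outside the cluster, 2 further osteocyte genes were at or near 0. Sost, which encodes sclerostin, was at 0 counts, and Fgf23 was at 0.028 ± 0.049 CPM (SD, n = 3) in MSR1 WT and at 0 in MSR1 KO libraries.

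The patterns most like those of the tested genes were sought among all tested genes, by the root-mean-square difference of log2 CPM after each gene was centred on its own mean over the 6 libraries. For Spp1 the nearest were Fam198b (0.048 on the log2 scale), 5430430B14Rik (0.049) and Epn2 (0.054), where the median over all genes was 0.45. Fam198b and Epn2 had log2 fold changes of -0.74 and -0.77. For Ibsp the nearest were Usp18, a protease that removes ISG15, at 0.13, Gimap6 at 0.13 and the lectin-like receptor gene Klrd1 at 0.16, with log2 fold changes of 1.08, 1.33 and 1.31 and a median distance of 0.79 over all genes. For Alpl these were Fam83h, 4930533K18Rik and Fancb (0.077 to 0.11), for Runx2 Cnst, Cyp2r1 and Rufy2 (0.031 to 0.043), for Dlx5 Apln, Ptges3l and Chrnb1 (0.087 to 0.089), and for Sp7 Arf1, Arhgdia and Gm43672 (0.067 to 0.13). These distances describe 6 libraries and carry no test.

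A hand-written list of other genes of the osteoblast program was measured beside the 9 genes. This list and the marker lists below were chosen with earlier results of these data known. Their shares of called genes are thus no independent test. Of the 57 genes of the program list in the table, 49 were tested. At an adjusted p under 0.05, 9 fell and none rose (18.4% called, against 4.91% of all tested genes). The median log2 fold change was -0.35, where that of all tested genes was -0.0023, and 42 of the 49 values were below 0. The 9 falls were in genes of matrix, mineral and signalling, and none of the 17 tested transcription factors had an adjusted p under 0.05. Of the 17 factors 12 had values below 0, and a difference between these roles was not tested. Without MSR1 WT replicate 1 the number that fell was 1, without MSR1 KO replicate 1 it was 2, without MSR1 KO replicate 3 it was 3, and without either MSR1 WT replicate 2 or MSR1 WT replicate 3 it was 5. Without MSR1 KO replicate 2 it was 6. By the study's definition 11 genes of the list were lower and 0 higher. Among them was the transcription factor gene Twist1 (log2 fold change -0.62, unadjusted p = 0.013 by edgeR, named after its value was seen).

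The most abundant transcription factor gene of the list, Maf, is also expressed in macrophages and gave 0.088 on the log2 scale (adjusted p = 0.66 by edgeR). Among receptors and signals, 4 of 12 tested genes fell (33.33%, against 4.91% of all tested genes called in either direction). Pdpn, which encodes the membrane glycoprotein podoplanin of early osteocytes, had 72, 58 and 74 counts in MSR1 KO and 258, 192 and 315 in MSR1 WT libraries (log2 fold change -1.83, standard error 0.28, adjusted p = 0.018 by edgeR). Tnfrsf11b, which encodes the RANKL decoy receptor osteoprotegerin, had 586, 768 and 628 counts in MSR1 KO and 1563, 1624 and 1359 in MSR1 WT libraries (log2 fold change -1.10, standard error 0.14, adjusted p = 0.010 by edgeR). The groups did not overlap for either gene. The vitamin D receptor gene Vdr fell by 0.84 on the log2 scale. The cadherin gene Cdh11 fell by 0.75 (named after its value was seen). Tnfsf11, which encodes RANKL, had 12 to 36 counts per library and a fold change of 0.65 on the log2 scale (standard error 0.50, adjusted p = 0.55 by edgeR), and is also named after its value was seen.

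Among matrix genes, 3 of 13 tested genes fell (23.08%, against 4.91% of all tested genes called in either direction). All 13 log2 fold changes were below 0, where over all tested genes 8273 were below and 8129 above. Lox, the lysyl oxidase that crosslinks collagen, had 5141, 6949 and 6513 counts in MSR1 KO and 13701, 12383 and 12486 in MSR1 WT libraries (log2 fold change -0.97, standard error 0.12, adjusted p = 0.0092 by edgeR). Bgn, the proteoglycan biglycan, fell by 0.76 on the log2 scale, from 444 ± 40.6 to 262 ± 30.6 CPM (SD, n = 3 each). Plod2, a lysyl hydroxylase of collagen, fell by 0.48 (named after its value was seen). The matrix gene of the list with the highest CPM was Col1a2 of type I collagen. It had 516 ± 85.6 CPM in MSR1 KO and 678 ± 54.7 CPM in MSR1 WT libraries (SD, n = 3 each), with an adjusted p of 0.11 by edgeR. Per exon length other matrix genes stood above Col1a2 in both groups. Among genes of mineral and phosphate, 2 of 7 tested genes fell (28.57%, against 4.91% of all tested genes called in either direction). Smpd3, a sphingomyelinase needed for mineralization, had a log2 fold change of -0.80, and Ank, which carries pyrophosphate out of the cell, had one of -0.45 (named after its value was seen).

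**Figure D4:**
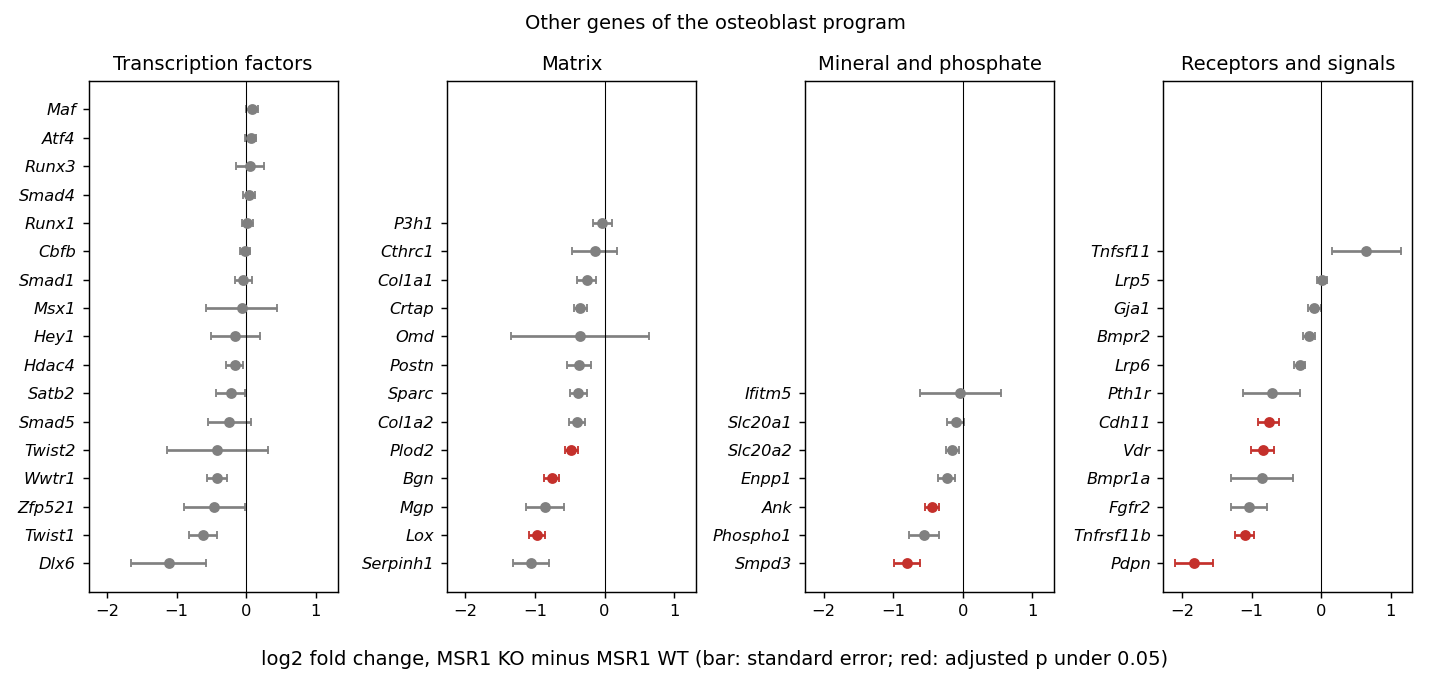
Log2 fold change (MSR1 KO minus MSR1 WT, horizontal axis) with its standard error for the 49 tested genes of the osteoblast program list, by role, with an adjusted p under 0.05 in red. The 17 transcription factors hold no red point, and all 13 matrix and all 7 mineral genes lie below 0.

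Markers of other cells moved beside these genes. Of the 16 stromal markers, all tested, 5 fell and none rose (31.25%, against 4.91% of all tested genes), with a median log2 fold change of -0.38. These were Pdgfra (-1.18), Cxcl12 (-1.11), Pdgfrb (-0.86, standard error 0.15), Fbn1 (-0.84) and Col6a1 (-0.80), genes of fibroblast-like cells. Of the 16 markers Fn1 and Col1a2 had the highest CPM, and per exon length Col1a1 stood above both. By the study's definition 6 were lower and 1 higher, and 4 of the 16 log2 fold changes were above 0. Thy1 (CD90), the one that was higher by that definition, had a value of 1.31 (adjusted p = 0.091 by edgeR), and Eng (CD105) and Nt5e (CD73) had values of 0.47 and 0.46 (adjusted p = 0.12 and 0.46 by edgeR). These surface proteins are used to define BMSCs, and the genes are named here after their values were seen. Col1a1 and Col1a2 are in both lists. Among the 9 genes, Alpl, Runx2, Sp7 and Dlx5 are also made by stromal precursors, and the part of stromal RNA in any value above was not tested. The defining late osteoblast markers Bglap and Bglap2 were at 0, and no library was free of stromal markers.

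Osteoclasts, which derive from macrophages and make osteopontin, were measured through 12 markers. Of these, 10 were tested, 3 fell and none rose (30%, against 4.91% of all tested genes). Of the log2 fold changes 5 were below and 5 above 0, with a median of -0.089. Atp6v0d2, a subunit of the proton pump, had 2376, 2291 and 3010 counts in MSR1 KO and 6992, 7080 and 8593 in MSR1 WT libraries (log2 fold change -1.48, standard error 0.13, adjusted p = 0.0032 by edgeR). Acp5, the tartrate-resistant acid phosphatase, and Ctsk, the collagen-degrading cathepsin K, had log2 fold changes of -0.98 and -0.85. The summed level of the list was 1147 to 1203 CPM in MSR1 KO and 1317 to 1344 CPM in MSR1 WT libraries. The groups of this sum did not overlap, but it mixes genes that moved in opposite directions. Mean Atp6v0d2 was 62.8 CPM in MSR1 KO and 176 CPM in MSR1 WT libraries. Mean Mmp9, whose groups overlapped, was 407 and 511 CPM. For 2 genes, among them Tcirg1 (468 and 403 CPM), every MSR1 KO library was above every MSR1 WT library, and for 3 below. Calcr, the calcitonin receptor gene of mature osteoclasts, was at 0 in all libraries, and the part of such cells in the fall of Spp1 was not tested. The most abundant markers, Mmp9 and Tcirg1, had values of -0.33 and 0.21, with adjusted p-values of 0.18 and 0.12 by edgeR.

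Receptors through which osteopontin acts on cells were measured as well. Of 10 such genes, 9 were tested and none had an adjusted p under 0.05 by edgeR (by the study's definition 1 was lower and 0 higher), with a median log2 fold change of 0.059. The most abundant, Itgb1 and Itgb5, encode integrin β chains and had log2 fold changes of -0.10 and 0.059. Of the 12 macrophage markers, Fcgr1, a high-affinity receptor for IgG, rose (1.14) and Mrc1, the mannose receptor CD206, fell (-0.39). These were 16.67% of the list, against 4.91% of all tested genes, and the median was 0.053. For 6 of the 12 markers every MSR1 KO library was above every MSR1 WT library, and for 1 below. The groups did not overlap for 25.5% of all tested genes. The macrophage markers with the highest CPM, Lyz2 and Csf1r, had log2 fold changes of -0.15 and 0.041 with adjusted p-values of 0.36 and 0.75 by edgeR. Per exon length other markers of the list stood above Csf1r.

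**Figure D5:**
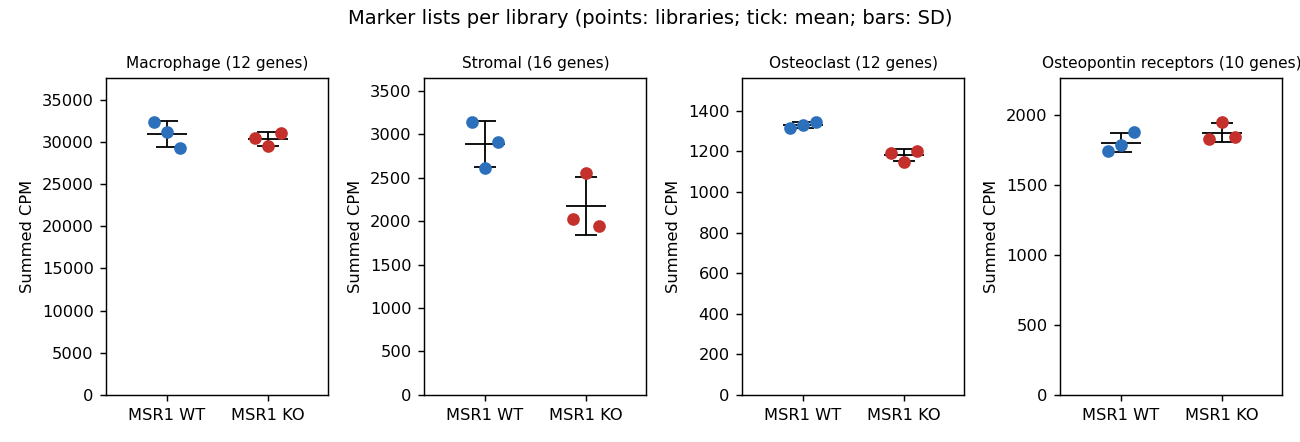
Summed CPM (linear axis) of 4 marker lists in each library, with the mean and SD of each group of 3. The stromal (1944 to 2558 CPM against 2614 to 3140 CPM) and osteoclast sums are lower in every MSR1 KO library than in every MSR1 WT library. The groups overlap for the sums of macrophage markers, of which Lyz2 has the highest CPM, and of osteopontin receptors. Single genes are not shown.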

How the data were processed

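RNA-seq counts of 6 libraries were analysed. The authors deposited 1 table with raw counts per gene and library, which are the values used here, and beside them a signal column per library, which holds that count after division by a size factor. The table also holds the authors' log2 fold changes and p-values, which were not used. The methods of the study name TopHat, and the submitters' processing notes name fastp 0.17.1, HISAT2 2.1.0, DESeq2 1.18.1 and R 3.4.3. The counting program, strand setting and genome build are not given in the sources used here. Of 52550 gene identifiers, 52403 were found in GENCODE M21 (GRCm38), with identical coordinates for 49909. No molecular identifiers are named, so reads are not independent molecules. 0 value columns were left without a sample.

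Counts were filtered with filterByExpr, scaled by TMM and put through the quasi-likelihood F test (glmQLFit, glmQLFTest) of edgeR 4.0.16 (limma 3.58.1, R 4.3.3). The Benjamini-Hochberg adjustment ran over the 16402 genes tested. A standard error is the size of a log2 fold change divided by √F. CPM are counts over the TMM-scaled library, and log values used a prior count of 2. Per-length levels divide CPM by the union of exons in GENCODE M21. The scripts were tested on simulated counts. Alternatives were DESeq2 1.42.0, other scalings and filters, the replicate number as a block and each library left out. The same-numbered libraries of the genotypes did not deviate together (correlations of -0.026 to 0.019). Replicates differed by more than sampling noise.

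The members and the gene lists were chosen with earlier results of these data known. Genes named were the 9 members, Msr1, Bglap3, Runx1 and Runx3. Of each list the called genes (the 6 with the largest change where there were more) were named. So were the 2 most abundant of each list, by CPM not divided by exon length. For each member with a mean count of at least 10 the 3 genes with the nearest pattern were named. Others are marked where they appear, apart from genes listed at or near 0, which were also named after their values were seen.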

Additional observations from a re-analysis of the deposited data

How the results depend on the processing

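The fall of Spp1 kept its direction and an adjusted p under 0.05 in all 12 alternatives (-0.88 to -0.74, adjusted p up to 0.042, with the replicate number as a block). Ibsp, Alpl and Dlx5 kept their direction in all 12 and had no adjusted p under 0.05 (Ibsp from 1.15 to 1.78, adjusted p from 0.085 to 0.40). Runx2 turned to -0.011 with library size alone and ranged from -0.064 to 0.12 with 1 library left out, and Sp7 from -0.49 to 0.067. With 1 library left out, 0 to 1 of the 9 genes were higher by the study's definition, 1 to 6 genes of the osteoblast program were lower, 53 to 372 of all genes were lower and 18 to 407 higher, and the median log2 fold change ranged from 0.067 to 0.31 for osteopontin receptors and from -0.76 to -0.11 for chondrocyte markers. DESeq2 called 848 genes lower and 720 higher, 15 of them in the program list (lower). Without a filter 25014 genes were tested, of which 288 were lower and 237 higher. The replicate block gave 78 lower, 59 higher and 3 lower in the program list, the numbers not being shown to pair libraries, and not every library correlated best with its own number. Library size alone gave the macrophage list a median of 0.022. Causes were not tested. The osteocalcin genes summed, with 3 counts in all, were tested only without a filter (adjusted p = 0.55), as was Phex (adjusted p = 0.99). Counts were low or 0 for Ibsp, Phex and the osteocalcin genes, and the part of depth in their results was not tested.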

Other observations

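Lists for the fates that BMSCs can take besides bone were also measured. Of 12 chondrocyte markers 6 were tested, and Col2a1, the type II collagen of cartilage, fell from 8.35 ± 1.62 to 3.89 ± 0.038 CPM (SD, n = 3 each; log2 fold change -1.10, adjusted p = 0.021 by edgeR), while Acan had a mean of 0.83 counts and Col9a1 and Hapln1 were at 0. Col11a1, the gene of that list with the highest CPM, gave -0.24 on the log2 scale (adjusted p = 0.63 by edgeR). Of 10 adipocyte markers 4 were tested and none had an adjusted p under 0.05 by edgeR (by the study's definition 1 was lower), and Lpl and Cebpa, the most abundant, had log2 fold changes of -0.19 and -0.066. Both genes are also expressed in macrophages, and the fat cell genes Lep, Cfd and Cidec were at 0 in all libraries. Genes at or near 0 were named after their values were seen.

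Within 1000 kb of the start of Spp1, a window chosen after the data were seen, 20 other genes were tested. Of these 1 was lower and 6 were higher at an adjusted p under 0.05 by edgeR. Over all tested genes 2.66% were lower and 2.25% higher. The lower one was Pkd2, whose start lies 24.3 kb from that of Spp1, which fell by 0.40 on the log2 scale (adjusted p = 0.040 by edgeR), and the 6 higher ones were Gm43302 and 5 guanylate-binding protein genes, all at least 704 kb away.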
